A study of Mus musculus with 6 samples.

Results

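Integrins and the proteins of focal adhesions were examined in mouse 3T3 fibroblasts, through 44 genes listed by symbol: 18 integrin subunits (12 alpha and 6 beta chains) and 26 proteins of the adhesion plaque. The list was drawn up by function and not by a threshold on these values, and each of the 44 symbols was found among the 35275 genes of the table. The study compared 3 RNA sequencing libraries of 3T3 cells, an immortalised embryonic fibroblast line, that carried a control construct with 3 libraries of 3T3 cells that overexpressed NNMT (nicotinamide N-methyltransferase, which methylates nicotinamide) from a construct. Cells of both groups had grown for 48 h in methionine-free medium brought to 10 µM methionine, with 10% dialyzed serum. The submitters call the samples biological replicates. Whether a group's cells were derived separately or are 1 clone, which promoter drives the construct, and which species' NNMT it carries are points on which the labels are silent. Levels were read as FPKM, reads scaled to gene length and library depth, which allows an approximate comparison between genes. That comparison rests on the length used for each gene. It also rests on how reads on bases shared between genes were counted, which the labels do not say. Values are mean ± SD with n = 3 per group unless each library is given, and the NNMT library whose column has no replicate number is called the unnumbered NNMT library.

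Integrins are surface receptors made of an alpha and a beta chain. The alpha chain largely sets which matrix protein is bound, and the tail of the beta chain binds talin and kindlin, which switch the receptor on and begin the link to actin. Vinculin, alpha-actinin, filamin, the complex of ILK, PINCH and parvin, and LIM proteins such as zyxin strengthen and tune that link, while focal adhesion kinase, paxillin and p130Cas carry signals from it. In fibroblasts these sites are best known for anchoring contractile actin cables to collagen and fibronectin.

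Reads recovered from the values numbered 31622254 to 39982080 per library, and within a group the correlation across genes was r = 0.995 to 0.998. Nnmt itself ranged from 5.25 to 7.60 FPKM in control and from 15.03 to 18.3 FPKM in NNMT libraries, without overlap. Whether reads of the construct count to this mouse gene is not known, since the labels do not give its species. All 10 fibroblast markers had a mean of at least 1 FPKM, and 4 rose (the collagen chains Col1a1, Col1a2 and Col3a1, and Pdgfrb) while 4 fell (Thy1, Vim, S100a4 and Lum). Their summed level was 7273 to 7471 FPKM in control and 9195 to 10363 FPKM in NNMT cells. The 5 epithelial and the 5 endothelial markers each had a mean under 0.1 FPKM, as did 4 of 5 skeletal muscle markers (Des stood at 0.231 and 0.635 FPKM in control and NNMT cells). Of the 5 macrophage markers, Ptprc and Adgre1 were under 0.1 FPKM, and the list summed to 6.55 to 7.46 FPKM in control and 3.25 to 4.35 FPKM in NNMT cells. Of the 5 smooth muscle markers, some of which fibroblasts with stress fibres also express, Acta2 rose (705 to 1004 FPKM in the means), Tagln fell (179.5 to 145 FPKM), Smtn did not pass, and Cnn1 and Myh11 were under 1 FPKM. That list summed to 886 to 924 FPKM in control and 1151 to 1177 FPKM in NNMT cells. Their part in the results below was not tested. The X-linked genes tested had a median log2 fold change of -0.70, those on chromosome 4 a median of -0.23, and those on chromosome 16 a median of 0.29.

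The groups differ in the construct, and the question is how the adhesion genes differ with it. Genes were tested with limma on log2(FPKM + 1), where changes of low genes come out too small, when their mean over the 6 libraries was at least 1 FPKM, and 34 of the 44 members met this. At an adjusted p under 0.05, 15 of the 34 rose and 10 fell in NNMT cells. In the same test 65.6% of all 10882 genes were called, 35.0% upward and 30.6% downward, against 73.5% of the tested members, so the share of members called was near the background. With a log2 fold change of at least 1 in size also required, 4.13% of all genes passed, and among the members Flnc and Itga6. The median log2 fold change of the tested members was 0.10 (0.03 over all genes tested), and their median absolute log2 fold change was 0.30 (0.24 over all genes). Groups did not overlap for 30 of the 34, where 69.9% of all genes tested did not overlap. An exact permutation test of a single gene cannot go below p = 0.1 with 3 libraries against 3. The p-values measure the spread between these samples, which may be technical, and a difference between the starting populations of the groups cannot be told apart from NNMT. Fewer cells of a type and less RNA per cell cannot be told apart in these bulk libraries either.

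**Figure D1:**
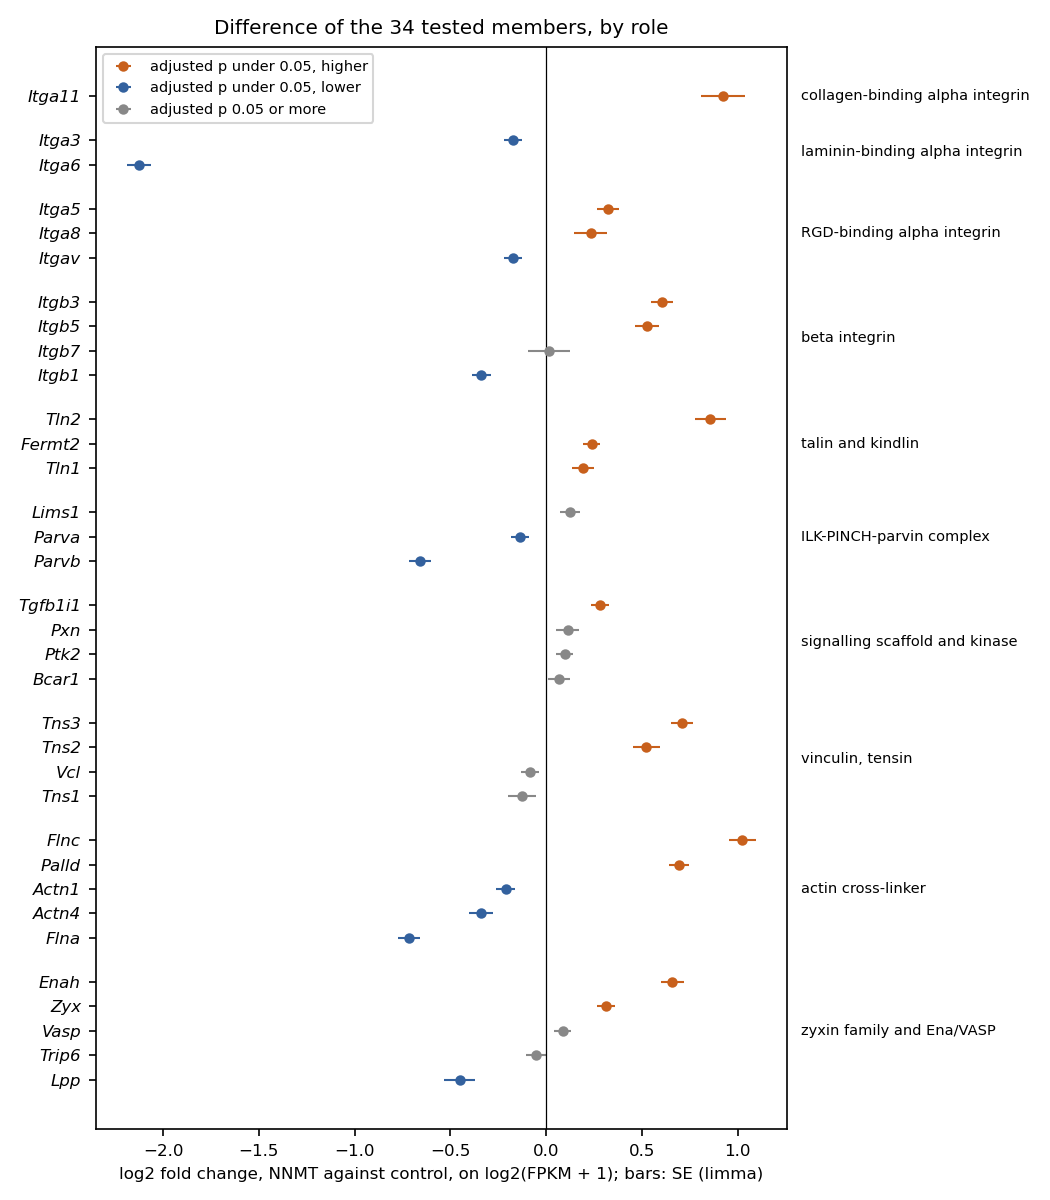
Log2 fold change of each tested member, NNMT against control on log2(FPKM + 1), ordered by role, with the limma standard error as bars and colours for the call at an adjusted p of 0.05. Itga6 lies at -2.13, far below the other members, and Flnc (1.03), Itga11 (0.93) and Tln2 (0.86) lie highest.

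Itga11, the only 1 of 4 collagen-binding chains that was tested, rose, and both tested laminin-binding chains fell. Of all genes tested, 35.0% rose and 30.6% fell. Itga11 (ENSMUSG00000032243, GRCm38 chromosome 9, 62677826 to 62783982), the alpha chain that binds fibrillar collagen in fibroblasts, was at 5.94, 5.38 and 5.31 FPKM in control replicates 1 to 3. The unnumbered NNMT library had 13.8 FPKM, NNMT replicate 2 had 9.08 and NNMT replicate 3 had 11.8. All NNMT libraries were thus above all control libraries, with a wider spread among them, and the means differed 2.09-fold (log2 fold change 0.93, SE 0.116, adjusted p = 5.58e-05). Itga1, which favours basement membrane collagen, was under the level set for testing, at 0.388, 0.412 and 0.417 FPKM in control libraries and 0.897, 1.00 and 1.13 FPKM in NNMT libraries (254 and 672 reads per group). Its NNMT libraries lay above its control libraries, by 2.49-fold in the means. Itga10, a collagen receptor chain of cartilage, was low as well, at 0.300 ± 0.0534 and 0.534 ± 0.00848 FPKM, without overlap. Itga2, the remaining collagen-binding chain, rested on 79 and 48 reads, and its groups overlapped at 0.175 ± 0.104 and 0.103 ± 0.0310 FPKM. With no filter on low values, a setting in which 38.5% of 20528 genes passed, Itga1 (adjusted p = 0.000745) and Itga10 (adjusted p = 0.0124) passed and Itga2 (adjusted p = 0.372) did not.

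Itga6 (ENSMUSG00000027111, chromosome 2, 71745616 to 71858416) forms laminin receptors with Itgb1 or Itgb4. It had the largest change in size of the 34 tested members. Its level was 17.9, 19.7 and 18.6 FPKM in control replicates 1 to 3, and 3.20, 3.62 and 3.77 FPKM in the unnumbered NNMT library and NNMT replicates 2 and 3. The groups were far apart, 5.31-fold in the means (log2 fold change -2.13, SE 0.0635, adjusted p = 3.18e-09), on 8482 reads in control and 1694 in NNMT cells. The 44 tested genes in its window of 10 Mb had a median log2 fold change of -0.17. Itga3, the other abundant laminin-binding chain, was at 29.3, 28.2 and 27.7 FPKM in control and 25.9, 24.9 and 24.5 FPKM in NNMT libraries. That fall was small, 1.13-fold, and without overlap (log2 fold change -0.17, adjusted p = 0.00758). Itga7, a laminin receptor chain known from muscle, was under the level set for testing, at 0.690 ± 0.0396 and 0.958 ± 0.196 FPKM, and was the only chain of this class with a higher mean in NNMT cells (no filter adjusted p = 0.0894). Itgb4, the partner of Itga6 in epithelial hemidesmosomes, stood at 0.211 ± 0.0216 and 0.194 ± 0.0243 FPKM with overlapping groups.

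Among the chains that read the arginine-glycine-aspartate motif of fibronectin and vitronectin, Itga5 rose and Itgav fell. Itga5, the main fibronectin receptor chain, was at 52.8, 60.4 and 56.2 FPKM in control replicates 1 to 3, and at 73.7, 70.2 and 68.8 FPKM in the unnumbered NNMT library and replicates 2 and 3. It was the most abundant alpha chain in each library and rose 1.26-fold (log2 fold change 0.32, adjusted p = 0.000525). Itgav, which pairs with several beta chains, went from 46.6 ± 1.73 to 41.1 ± 0.916 FPKM, without overlap (log2 fold change -0.17, adjusted p = 0.00726). The ratio of Itga5 to Itgav was 1.21 ± 0.0378 in control and 1.72 ± 0.0919 in NNMT cells. Itga8, at 1.72 ± 0.0645 and 2.21 ± 0.363 FPKM, passed narrowly (log2 fold change 0.23, adjusted p = 0.0388). Its call was lost when any of the 3 control libraries, the unnumbered NNMT library or NNMT replicate 3 was left out (adjusted p = 0.0673 to 0.141), and under each of the other scalings (0.0553 to 0.101). Itga9, a receptor chain for tenascin and osteopontin, was just under the level set for testing, at 1.06, 1.06 and 0.868 FPKM in control and 0.633, 0.431 and 0.647 FPKM in NNMT libraries, so that its NNMT libraries lay below its control libraries (no filter adjusted p = 0.0122). Itga4, its relative on leukocytes, had 2 reads in all control libraries and 1 in all NNMT libraries.

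The beta chains moved in opposite directions, and the most abundant chain fell. Itgb1 (ENSMUSG00000025809, chromosome 8, 128685654 to 128733200), the common partner of most alpha chains in fibroblasts, was at 212, 229 and 229 FPKM in control replicates 1 to 3. It was at 169, 181 and 178 FPKM in the unnumbered NNMT library and replicates 2 and 3. Each NNMT library was below each control library, and the means differed 1.27-fold (log2 fold change -0.34, SE 0.0499, adjusted p = 0.000173). Itgb5, which pairs with Itgav to bind vitronectin, went from 78.7, 74.1 and 74.7 FPKM to 121, 103 and 105 FPKM (1.45-fold, log2 fold change 0.53, adjusted p = 4.49e-05). It lies on chromosome 16, where the 65 tested genes of its 10 Mb window had a median of 0.38. Itgb3, which pairs with Itgav and, in platelets, with Itga2b, went from 4.21, 4.49 and 4.32 FPKM to 7.20, 7.49 and 6.70 FPKM (1.64-fold, log2 fold change 0.61, adjusted p = 9.68e-06). Itgb8, a partner of Itgav that activates latent TGF-beta, was lower without overlap, at 0.683 ± 0.0860 and 0.238 ± 0.0259 FPKM (no filter adjusted p = 0.00121). Itgb7, a leukocyte chain, was at 2.28 ± 0.198 and 2.34 ± 0.522 FPKM with overlapping groups (adjusted p = 0.907).

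The summed levels of the chains overlapped between the groups, while the shares of several chains did not. All 12 alpha chains summed to 160.0 ± 5.87 FPKM in control and 158 ± 4.98 FPKM in NNMT cells, and all 6 beta chains to 306 ± 7.21 and 296 ± 3.76 FPKM, with overlapping groups in each case. Within the alpha chains Itga5 held 35.3 ± 1.13% in control and 45.0 ± 1.02% in NNMT cells, Itga6 11.7 ± 0.155% and 2.24 ± 0.245%, and Itga11 3.47 ± 0.315% and 7.32 ± 1.29%. Within the beta chains Itgb1 held 72.8 ± 1.51% and 59.6 ± 2.73%, and Itgb5 24.8 ± 1.41% and 37.1 ± 2.93%. None of these 5 shares overlapped between the groups, where the levels of 69.9% of all genes tested did not overlap either. Shares within a sum depend on each other, so those of Itgb1 and Itgb5 are not separate observations. Summed alpha chains over Itgb1 gave 0.717 ± 0.0234 in control and 0.896 ± 0.0601 in NNMT cells. These sums and shares are descriptions of transcript levels and were not tested.

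**Figure D2:**
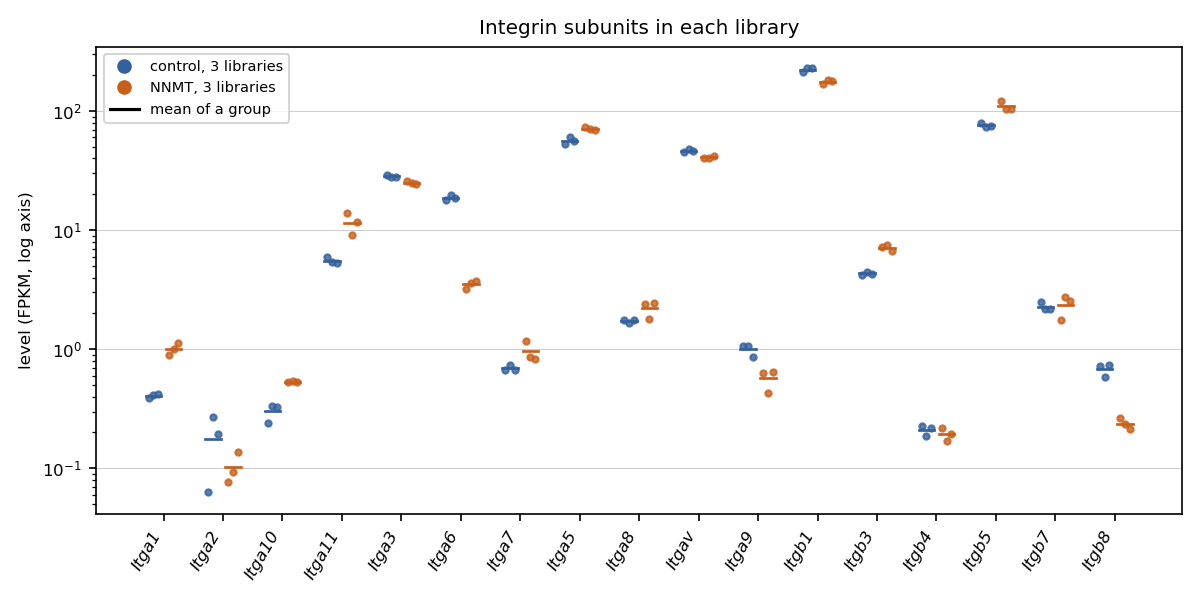
Level of each integrin subunit in each library (FPKM, log axis), with 1 point per library and the group mean as a line; Itga4, with 3 reads in all, is left out. Itga6 stands near 18.8 in control and 3.53 in NNMT cells, while Itga11, Itga1, Itgb3 and Itgb5 have all NNMT points above all control points.

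The promoter of Itgb1 is shown because it holds, with those of 8 other members, letters bound by the TEAD factors that act with YAP and TAZ (the hexamer GGAATG, or CATTCC on the other strand). Sequences are from RefSeq on GRCm38.p6, 5′ to 3′ along the gene, from 250 bases before to 50 bases after the start, with the motif in capitals. Of the 44 members, 34 had a promoter there, 43 promoters in all. The other 10, among them Itga6, Itgb3 and Tln2, had none there and were not searched for any motif. The hexamer was present in 10 of the 43 (23.3%) and in 14.7% of all 32851 promoters of the same length. The Flnc promoters overlap and hold the same site, which is therefore counted in both. The 9 genes were Itgb1, Flna, Actn4 and Lpp, which fell, Flnc and Palld, which rose, Vcl and Trip6, which did not pass, and Itga10, which was not tested. A match is no evidence that a factor binds there. The Itgb1 promoter lies at chr8:128685404-128685703, plus strand.
Itgb1: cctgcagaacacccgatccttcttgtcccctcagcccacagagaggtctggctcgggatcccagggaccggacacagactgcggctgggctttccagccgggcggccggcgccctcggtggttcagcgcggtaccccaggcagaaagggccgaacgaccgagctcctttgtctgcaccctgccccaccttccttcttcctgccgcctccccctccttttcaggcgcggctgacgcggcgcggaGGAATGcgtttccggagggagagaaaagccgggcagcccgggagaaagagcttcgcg

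The genes for proteins that switch integrins on, 2 talins and 1 kindlin, all rose, where 35.0% of all genes tested did, though the call of Tln1 was not made under every alternative. Tln2 (ENSMUSG00000052698, chromosome 9, 67217087 to 67559703), the less abundant talin, went from 7.19, 6.94 and 6.42 FPKM in control replicates 1 to 3 to 14.9, 11.6 and 13.4 FPKM in the unnumbered NNMT library and replicates 2 and 3. The groups were well apart, 1.94-fold in the means (log2 fold change 0.86, SE 0.0817, adjusted p = 8.10e-06). Tln1, the widely expressed talin, was at 65.8 ± 3.57 and 75.5 ± 4.44 FPKM (log2 fold change 0.20, adjusted p = 0.0121). That call was lost without control replicate 3 (adjusted p = 0.0548) and with scaling on genes outside X, Y, 4 and 16 (adjusted p = 0.0599). Tln2 held 9.43 ± 0.580% of the summed talin level in control and 14.9 ± 0.984% in NNMT cells. Fermt2, the kindlin of fibroblasts, went from 35.0, 36.9 and 37.4 FPKM to 42.6, 43.5 and 43.3 FPKM, a narrow and non-overlapping rise of 1.18-fold (adjusted p = 0.000957).

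In the complex of ILK, PINCH and parvin, the parvins fell, where 30.6% of all genes tested did. The call of Parva was not made under every alternative. Parvb went from 15.1, 17.4 and 16.1 FPKM in control libraries to 9.62, 10.2 and 9.89 FPKM in NNMT libraries, 1.64-fold lower with no overlap (log2 fold change -0.66, SE 0.0579, adjusted p = 4.71e-06), where its window of 82 tested genes had a median of 0.13. Parva, the more abundant parvin, was at 46.5 ± 1.45 and 42.2 ± 1.59 FPKM (log2 fold change -0.14, adjusted p = 0.0263). Its call was lost without control replicate 1 (adjusted p = 0.104), control replicate 2 (0.0723), the unnumbered NNMT library (0.0543) or NNMT replicate 3 (0.0809). Lims1, which encodes PINCH1, was at 32.2 ± 1.24 and 35.3 ± 1.83 FPKM and missed the threshold (log2 fold change 0.13, adjusted p = 0.0558). It passed on recovered reads (adjusted p = 0.0448), without control replicate 3 (0.0493) and without the unnumbered NNMT library (0.0258). Lims2, which encodes PINCH2, was low, at 0.291 ± 0.0827 and 0.471 ± 0.0160 FPKM (51 and 89 reads), with all NNMT libraries above all control libraries (no filter adjusted p = 0.0497). Ilk, the scaffold at the centre of the complex, was listed at 0.0556 ± 0.0218 and 0.0388 ± 0.0154 FPKM, on 13 and 10 reads. In the annotation 89.7% of the exon bases of Ilk are shared with exons of its neighbours on the other strand, Rrp8 and Taf10, which stood at 21.4 ± 0.0816 and 20.2 ± 1.24 FPKM in control cells. The labels do not say how reads on shared bases were counted, and the part of this overlap in the value was not tested, so no level of Ilk is read from it.

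Of the signalling scaffolds, 1 of 4 passed, where 65.6% of all genes tested did. Tgfb1i1, which encodes the paxillin relative Hic-5, went from 25.2, 24.4 and 24.0 FPKM to 29.7, 31.4 and 29.2 FPKM, a rise of 1.23-fold without overlap (log2 fold change 0.28, adjusted p = 0.000417). Ptk2, focal adhesion kinase, was at 25.6 ± 0.782 and 27.5 ± 0.556 FPKM (adjusted p = 0.0866), and Bcar1, which encodes p130Cas, at 33.8 ± 1.33 and 35.6 ± 2.40 FPKM (adjusted p = 0.319). Pxn, paxillin, was at 26.8 ± 0.418 and 29.1 ± 2.27 FPKM (adjusted p = 0.111, and 0.0293 without NNMT replicate 2).

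Vinculin did not pass, and 2 of the 3 tensins rose, where 35.0% of all genes tested did. Vcl, which reinforces the link of talin to actin under load, was at 48.6, 52.5 and 51.4 FPKM in control and 48.3, 48.0 and 47.3 FPKM in NNMT libraries (log2 fold change -0.08, adjusted p = 0.126, and 0.0299 with scaling on genes outside X, Y, 4 and 16). Exons of Ap3m1 share 25.5% of its exon bases. Tensins bind beta chain tails and actin and mark long-lived fibrillar adhesions. Tns3 went from 20.8, 23.6 and 20.8 FPKM to 36.7, 37.3 and 34.4 FPKM, far outside the spread of either group (1.66-fold, log2 fold change 0.71, adjusted p = 3.19e-06). Tns2 rose 1.46-fold, from 17.4 ± 1.30 to 25.5 ± 2.03 FPKM (adjusted p = 7.96e-05). Tns1 was at 15.0 ± 1.14 and 13.7 ± 1.29 FPKM with overlapping groups (log2 fold change -0.12, adjusted p = 0.159, and 0.0379 without the unnumbered NNMT library). Tns1 thus held 27.7 ± 0.930% of the summed tensin level in control and 18.2 ± 1.06% in NNMT cells.

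All 5 actin cross-linkers passed, where 65.6% of all genes tested did, and the filamins went opposite ways. Flnc (ENSMUSG00000068699, chromosome 6, 29433256 to 29461883), the filamin known from muscle, was at 69.3, 76.9 and 67.3 FPKM in control replicates 1 to 3 and at 160.3, 135 and 142 FPKM in the unnumbered NNMT library and replicates 2 and 3. It had the largest rise of the 34 tested members, 2.05-fold (log2 fold change 1.03, SE 0.0705, adjusted p = 8.71e-07). Flna (ENSMUSG00000031328, X chromosome, 74223461 to 74249820), the main filamin of non-muscle cells, stood at 369, 416 and 380.1 FPKM in control and 248, 227 and 231 FPKM in NNMT libraries. That was 1.65-fold lower with a wide gap between the groups (log2 fold change -0.72, SE 0.0569, adjusted p = 2.29e-06). Flna is the only member on X, where the 52 tested genes of its 10 Mb window had a median of -0.76, so its value was close to the median of its neighbours. The ratio of Flna to Flnc was 5.46 ± 0.172 in control and 1.62 ± 0.0647 in NNMT cells, and Flnc held 15.5 ± 0.407% and 38.2 ± 0.950% of their sum, which was 459 ± 29.2 and 382 ± 24.0 FPKM.

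Palld (palladin, chromosome 8), which organises actin bundles together with alpha-actinin, went from 27.2, 29.0 and 26.8 FPKM to 47.5, 43.8 and 44.9 FPKM, a rise of 1.64-fold (log2 fold change 0.69, adjusted p = 1.33e-06). The alpha-actinins both fell without overlap. Actn4 was at 229, 254 and 232 FPKM in control and 199, 193 and 173 FPKM in NNMT libraries (1.27-fold lower, adjusted p = 0.000850). Actn1 was at 192 ± 7.26 and 166 ± 6.36 FPKM (1.16-fold lower, adjusted p = 0.00341). Actn1 held 44.7 ± 0.605% of their sum in control and 46.9 ± 0.963% in NNMT cells, a small shift without overlap.

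The promoters of the filamins and of palladin are shown because these genes changed in different directions while each holds the same hexamer, in capitals. The Flna promoter lies at chrX:74246485-74246784, minus strand, the second of the Flnc promoters at chr6:29433006-29433305, plus strand, and the Palld promoter that holds the hexamer, among 3 listed, at chr8:61760040-61760339, minus strand.
Flna: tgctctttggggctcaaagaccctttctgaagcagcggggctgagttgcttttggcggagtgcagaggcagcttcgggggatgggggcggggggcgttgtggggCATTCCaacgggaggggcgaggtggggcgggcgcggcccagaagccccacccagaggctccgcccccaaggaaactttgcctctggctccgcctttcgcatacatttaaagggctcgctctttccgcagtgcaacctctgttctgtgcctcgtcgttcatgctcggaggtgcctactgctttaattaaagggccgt
Flnc: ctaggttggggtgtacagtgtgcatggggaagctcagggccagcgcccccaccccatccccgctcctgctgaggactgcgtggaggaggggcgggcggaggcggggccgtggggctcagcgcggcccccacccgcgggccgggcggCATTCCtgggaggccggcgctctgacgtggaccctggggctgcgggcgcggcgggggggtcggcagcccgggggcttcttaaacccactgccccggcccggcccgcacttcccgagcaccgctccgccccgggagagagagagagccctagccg
Palld: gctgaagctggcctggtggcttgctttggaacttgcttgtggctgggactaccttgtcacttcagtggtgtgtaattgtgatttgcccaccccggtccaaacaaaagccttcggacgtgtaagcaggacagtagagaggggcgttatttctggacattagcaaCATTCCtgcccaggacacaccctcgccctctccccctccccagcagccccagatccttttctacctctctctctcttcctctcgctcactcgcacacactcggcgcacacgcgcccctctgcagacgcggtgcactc

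Among the zyxin family and the Ena/VASP proteins, which feed actin growth at adhesions, 2 of 5 rose and 1 fell. Of all genes tested, 35.0% rose and 30.6% fell. Enah, which encodes Mena, went from 21.8, 19.1 and 20.5 FPKM to 34.9, 31.2 and 32.7 FPKM, 1.61-fold higher and well outside the spread (log2 fold change 0.66, adjusted p = 6.30e-06). Its relative Vasp was at 64.2 ± 0.460 and 68.2 ± 2.73 FPKM (log2 fold change 0.09, adjusted p = 0.119, and 0.0484 without NNMT replicate 2). Zyx, zyxin, went from 190.4, 189.8 and 181 FPKM to 226, 241 and 229 FPKM, 1.24-fold higher (log2 fold change 0.31, adjusted p = 0.000194). Lpp, a close relative of zyxin on chromosome 16, was at 18.0, 19.7 and 16.03 FPKM in control and 12.2, 12.0 and 14.3 FPKM in NNMT libraries. It fell without overlap (log2 fold change -0.45, adjusted p = 0.000710), while the 41 tested genes of its window had a median of 0.17. Trip6, the third zyxin relative, was at 64.5 ± 1.71 and 62.2 ± 3.29 FPKM with overlapping groups (adjusted p = 0.377).

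**Figure D3:**
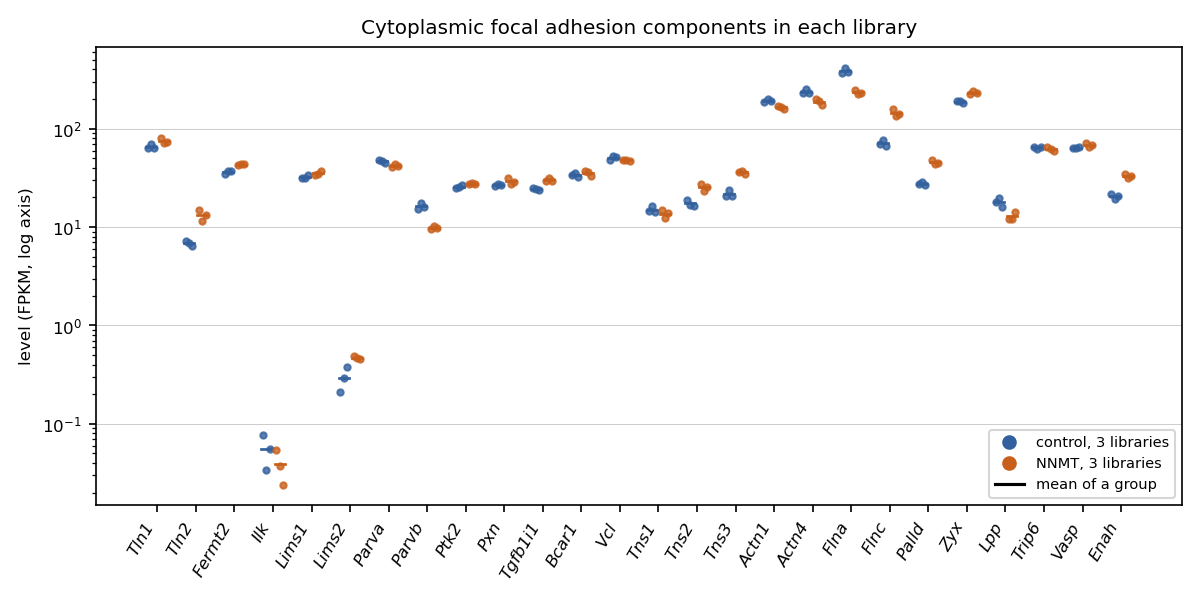
Level of each cytoplasmic adhesion component in each library (FPKM, log axis), with 1 point per library and the group mean as a line. Flnc, Tln2, Tns3, Palld and Enah have NNMT points well above control points, Flna and Parvb well below, and Ilk stands under 0.1 in every library.

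A CArG box, the site of serum response factor, which drives many actin cytoskeleton genes, was found in the promoters of Vcl, Fermt2 and Trip6. These were 3 of the 43 member promoters (6.98%), against 1.63% of all promoters of the same length. The box was searched on both strands, on which it reads alike, and can overlap the hexamer above. Of these, Fermt2 rose, and Vcl and Trip6 did not pass. The windows are shown with the box in capitals, at chr14:20929161-20929190, plus strand (227 bases before the start), at chr14:45530250-45530279, minus strand (204 bases before it) and at chr5:137314221-137314250, minus strand (beside the start).
Vcl: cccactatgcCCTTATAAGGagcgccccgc
Fermt2: tccttcatttCCATAAAAGGgcagcgctcc
Trip6: gtggtcgtctCCAAAATTGGggaggaaggg

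**Figure D4:**
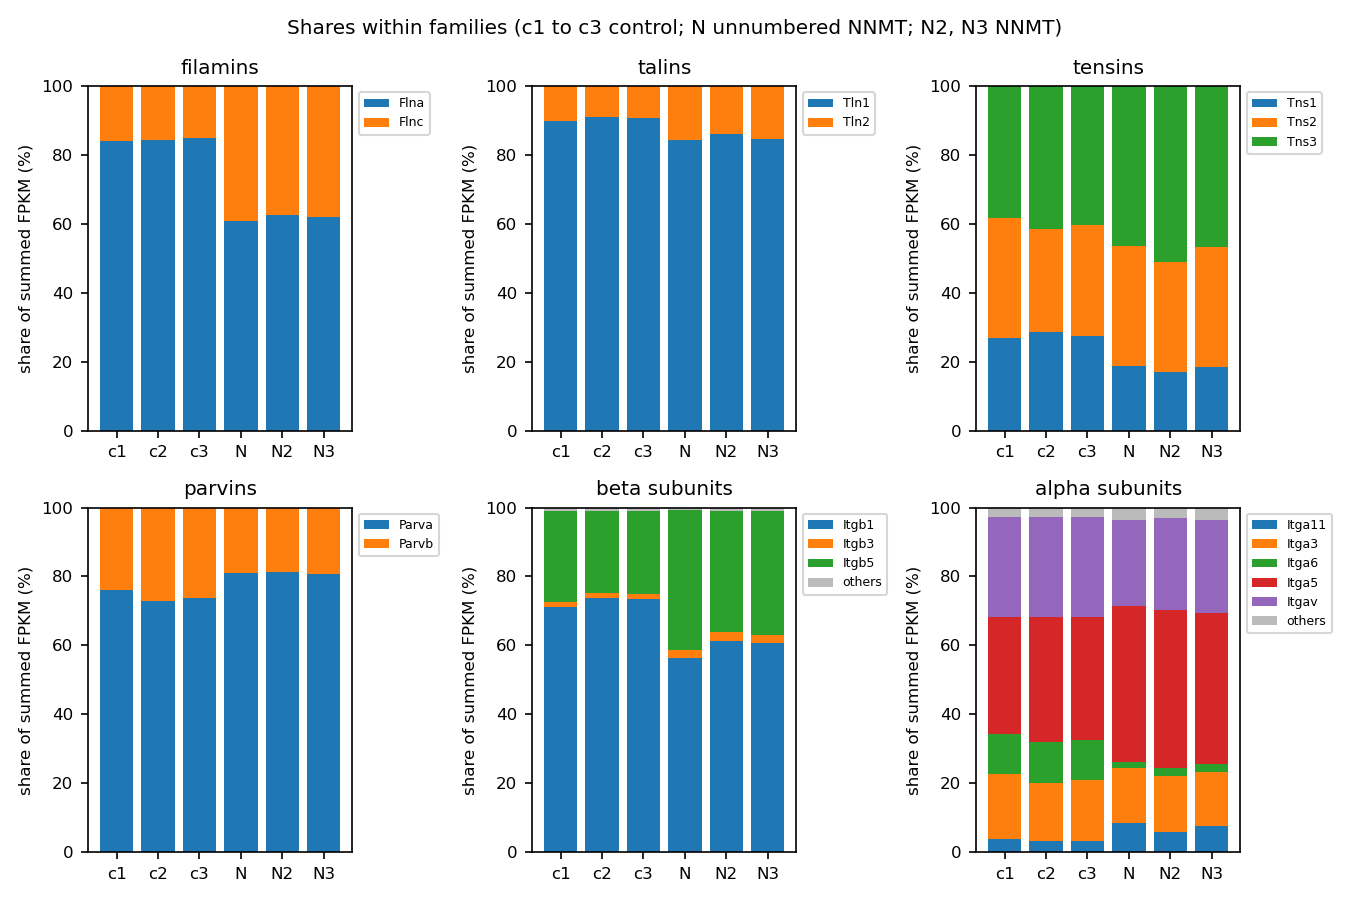
Share of the summed FPKM of each family held by its members, with 1 bar per library (c1 to c3 are control replicates, N the unnumbered NNMT library, N2 and N3 the numbered NNMT libraries). The share of Flnc among the filamins goes from 15.5% to 38.2% in the means, that of Itgb5 among the beta chains from 24.8% to 37.1%, and Itga6 shrinks from 11.7% to 2.24% of the alpha chains.

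Since chromosomes differed in their median change, each member was set beside the tested genes of its 10 Mb window (21 to 118 genes, window medians from -0.76 to 0.38). Of the 25 members called, 23 lay farther from 0 than the median of their window, the exceptions being Flna and Itga8. This is the background, since 90.2% of the 6585 called genes in windows of at least 21 tested genes did so too. In 5 cases (Itga3, Parva, Parvb, Lpp and Enah) the change was opposite in sign to that median, 20% of the called members against 25.3% of those genes. Outside X, Y, 4 and 16, 13 of 30 tested members rose and 8 fell (70.0% called, where 63.5% of all tested genes there were). The members on these chromosomes were Flna on X, Tln1 on 4, and Itgb5 and Lpp on 16. How far a chromosome-wide shift enters these values was not tested.

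**Figure D5:**
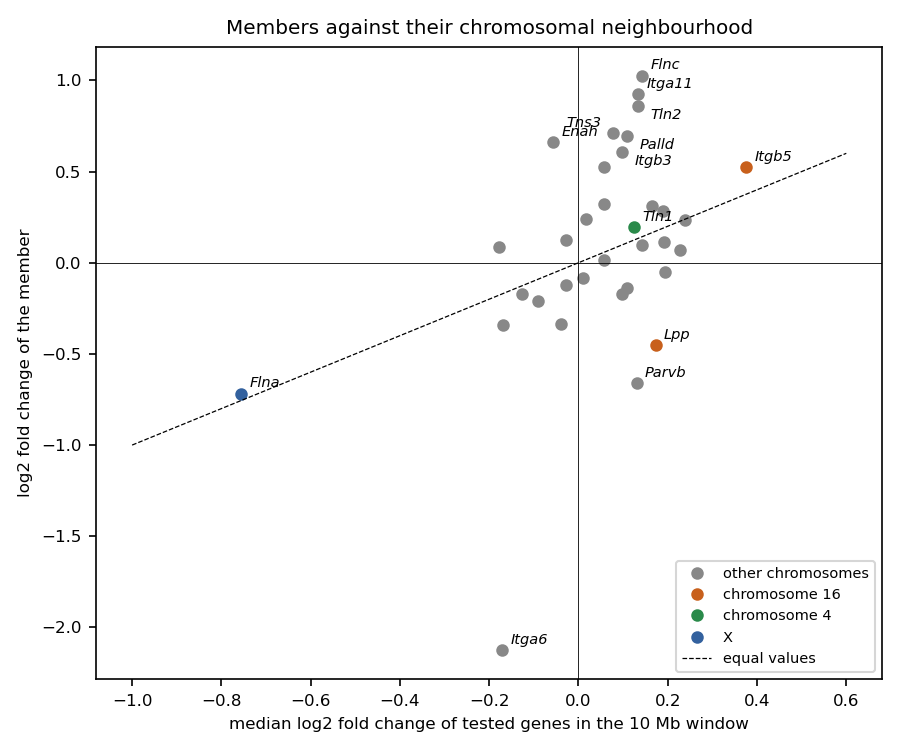
Log2 fold change of each tested member (vertical) against the median of all tested genes in its 10 Mb window (horizontal), both NNMT against control on log2(FPKM + 1), with a dashed line where they are equal. Flna lies on the line at -0.72 against -0.76, whereas Itga6, Parvb and Lpp lie far below it and Flnc, Itga11, Tln2 and Enah far above.

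Genes that encode integrin ligands mostly rose. Of 33 listed, 28 were tested, and 22 rose (78.6%, against 35.0% of all genes tested) and 2 fell (7.14%, against 30.6%). Their median log2 fold change was 0.53, against 0.03 for all genes tested. Periostin (Postn), a ligand of Itgav receptors, rose from 36.0 ± 2.76 to 141 ± 15.2 FPKM, 3.90-fold. Nephronectin (Npnt), the ligand of Itga8, rose 2.18-fold to 20.2 ± 0.547 FPKM, Ccn1 2.07-fold to 242 ± 33.0 FPKM, and Col3a1, a fibrillar collagen chain bound by Itga11 and its class, 2.04-fold to 505 ± 72.5 FPKM. The fallers were Edil3 (6.04 ± 0.311 to 2.47 ± 0.219 FPKM) and Mfge8 (98.4 ± 1.38 to 72.8 ± 4.33 FPKM), secreted proteins that bind Itgav receptors. Most tested laminin chains rose while Itga6 fell, and all were named after their values were seen. Lamb1 went from 82.2 to 142 FPKM in the means, Lamb2 from 20.01 to 40.2 FPKM and Lamc1 from 46.4 to 64.6 FPKM. Of the laminin alpha chains, Lama2 rose from 1.41 to 3.34 FPKM and Lama5 from 0.0901 to 2.48 FPKM. Lama4, the most abundant laminin alpha chain, did not pass the limma test (3.95 ± 0.539 and 4.01 ± 0.569 FPKM, adjusted p = 0.898). Changes of matrix genes in these cells were known when the list was made, so that their direction is not independent support.

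Among 81 other adhesion genes, 68 were tested, of which 27 rose and 20 fell. The share called, 69.1%, was near the 65.6% of all genes tested, and the median log2 fold change was 0.04. Among those reaching 5 FPKM in the higher group, the largest rises were those of Mylk and Myl9, genes of the contractile machinery. Mylk, the myosin light chain kinase, went from 0.690 ± 0.0832 to 8.47 ± 1.22 FPKM (12.3-fold), and Myl9, a regulatory myosin light chain, from 18.1 ± 0.335 to 63.2 ± 2.95 FPKM (3.50-fold). Svil, which encodes the actin-binding protein supervillin, rose 2.04-fold to 21.1 ± 2.80 FPKM. By the same rule, the largest falls were those of Fblim1, which encodes migfilin, a partner of filamin and kindlin (14.9 ± 0.220 to 6.61 ± 0.764 FPKM), Pip5k1c, whose lipid product recruits talin (26.7 ± 0.515 to 17.1 ± 1.25 FPKM), the GTPase Cdc42 (123 ± 5.08 to 79.7 ± 5.34 FPKM) and Evl, a relative of Vasp and Enah (26.3 ± 1.45 to 16.9 ± 0.634 FPKM). Fblim1 and Cdc42 lie on chromosome 4 and Mylk on 16. All named genes of this list passed the limma test (adjusted p from 1.98e-09 to 7.38e-06).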

How the data were processed

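The authors deposited a table of gene levels for 6 libraries, with no unit in its header. The deposited values were read as FPKM, because within a library the values times the length of the longest GENCODE M21 transcript are whole multiples of a constant for 14597 (71.1%) of the 20528 genes that had any reads. All 20528 gave whole reads with a tolerance of 0.01 of a read, taking another length where needed, and for such genes the read numbers rest on that length. Per the submitters' processing notes, the tools were CASAVA and STAR 2.5 and the build mm10. The counter, the annotation release, the strand setting and poly-A selection were not given there or in the labels. Symbols and coordinates follow GENCODE M21 on GRCm38, which mm10 denotes.

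The column NNMT names its group and no replicate number, and was used as the remaining NNMT library. Recovered reads differed between libraries of a group beyond counting error (chi-square over degrees of freedom from 6.35 to 23.9), and all 6 were kept as separate libraries. Apart from the submitters' term biological replicates, nothing in the labels tells separate cultures from repeated preparations.

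Genes were kept at a mean of 1 FPKM or more and tested with limma 3.58.1 in R 4.3.3 on log2(FPKM + 1), with a trend and robust moderation, two-sided, and adjusted p-values (Benjamini-Hochberg) cover all 10882 genes tested. The script was tested on simulated data in which few genes were changed, 50 at each fold. It recovered 38 of 50 changes of 1.25-fold and 48 or 49 of 50 at 1.5-fold, 2-fold and 4-fold. Among the unchanged genes it made 23 false calls. Folds are ratios of group means where each group had at least 10 reads. Every member was to be described. From the ligand list and the list of other adhesion genes, up to 4 rises and 4 falls with the largest log2 fold change were named, among those that passed with a mean of at least 5 FPKM in the higher group; 1 gene that this rule names is not reported here. The members, the lists and their tests were chosen with earlier results of these data known. Alternatives were other scalings, filters, pseudocounts, variance models, thresholds, recovered reads, each library left out, and a replicate block.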

Additional observations from a re-analysis of the deposited data

How the results depend on the processing

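Over 19 alternatives, 22 of the 25 called members kept their call and direction in every setting apart from a threshold on the fold; the exceptions were Itga8, Tln1 and Parva. When a log2 fold change of 1 or more in size was required, 1 member was higher (Flnc) and 1 lower (Itga6), 257 and 192 of all genes, 5 and 1 of the ligand genes and 4 and 1 of the other adhesion genes. Of the ligand genes, 1 was lower with a mean of at least 5 FPKM required. Itgb7, which was not called, turned from 0.02 to -0.0559 under quantile normalization, -0.0041 with medians of ratios and -0.0189 with scaling on genes outside X, Y, 4 and 16, and ranged from -0.0731 to 0.15 with a library left out; the cause was not tested. With each library left out, 14 to 17 members were higher and 9 or 10 lower. With scaling on genes outside X, Y, 4 and 16, members higher and lower numbered 13 and 11, and all genes turned from 3806 higher and 3334 lower to 3363 and 3817. On recovered reads these were 16 and 10 members and 3837 and 3356 of all genes. Fold changes with a pseudocount of 10 are smaller by construction.

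Same-numbered libraries share only a number, and were not treated as pairs: 2 numbers occur in both groups' columns, with correlations of deviations of 0.21 and 0.11. With the replicate block over those 4 libraries, 14 members were higher and 10 lower, and 3910 and 3199 of all genes, and 4 ligand genes were lower instead of 2. The calls of Itga8 (adjusted p = 0.0875), Tln1 (0.0624) and Parva (0.154) were not made with the block, and Lims1 (0.0360) and Tns1 (0.00377) were called. That fit has fewer libraries and leaves 1 residual degree of freedom, so its p-values rest on the spread pooled across genes. Depth limits the members under 1 FPKM, such as Itga4 with 2 reads in control and 1 in NNMT cells.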

Other observations

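Integrin chains outside the 44 members were mostly near 0 in these fibroblasts. Of 9 such chains, Itga2b, the platelet partner of Itgb3, was the only tested gene, and it rose from 2.01 ± 0.244 to 4.90 ± 0.370 FPKM (2.44-fold, limma log2 fold change 0.97, adjusted p = 2.56e-06). The leukocyte chains Itgal and Itgb2, which form a receptor together, were low and were not tested. Itgal was at 0.0279 ± 0.0131 and 0.276 ± 0.0465 FPKM (15 and 162 reads per group), and Itgb2 at 0.407 ± 0.0760 and 0.855 ± 0.108 FPKM (125 and 285 reads). The leukocyte marker Ptprc stood at 0.0120 and 0.00482 FPKM in the means of the same groups. Itgb6, an epithelial partner of Itgav, had 4 reads in control and 0 in NNMT cells, and Itgb2l had none.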
